A study of Rattus norvegicus with 12 samples.

Results

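Described here are 31 genes of the sterol regulatory element-binding protein (SREBP) pathway in rat theca-interstitial cells, which surround the ovarian follicle and make androgens. They were chosen by symbol from a list of mevalonate and sterol enzymes, fatty acid synthesis enzymes and SREBP regulators, a rule that uses no measured value, but the list itself was drawn up with earlier results of these data known. All 31 symbols matched a row of the deposited table of 30045 rows, and all 31 were among the 17330 genes that passed the filter on low counts. The cultures fell into 3 groups of 4 libraries each. The first group received rat interleukin-1β (IL-1β), an inflammatory cytokine whose dose is not in the labels. The second received lipopolysaccharide (LPS), a bacterial cell wall component, at 1 µg/ml. The third was the control and received vehicle. Treatment lasted 48 h, and the cells of every group came from wild-type female Sprague Dawley rats on postnatal day 30 and grew on human fibronectin in McCoys 5A medium. The study asked how both inflammatory stimuli change gene expression in these cells. Nothing in the labels ties a replicate to an animal or an isolation of its own, so each p-value refers to the spread among these samples alone, which may be technical.

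SREBPs are transcription factors made as membrane proteins of the endoplasmic reticulum. When membrane sterols are low, the escort protein SCAP carries them to the Golgi, where the proteases encoded by Mbtps1 and Mbtps2 release the active domain. When sterols are high, INSIG proteins hold SCAP back in the endoplasmic reticulum. The product of Srebf2 acts mainly on cholesterol synthesis genes and that of Srebf1 mainly on fatty acid synthesis genes, usually together with NF-Y and Sp1 bound nearby. In theca cells cholesterol is also the starting material of androgen synthesis.

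The promoters of 4 of these genes are printed to show the sequences that SREBP, NF-Y and Sp1 would meet at genes that did and did not change. Hmgcs1, Idi1 and Dhcr7 were among the 4 members with the highest log2 fold change in both treatments, and Insig1 was called in neither. Each sequence runs from 250 bases before to 50 bases after the start site in RefSeq's annotation of GRCr8, a newer build than the Rnor_6.0 used for the counts. Capitals mark matches on either strand to CCAAT (the NF-Y box, ATTGG on the other strand), GGGCGG (the Sp1 box, CCGCCC on the other strand), CACGTG (the E-box) and CACNCCAC (the 8-letter core of the sterol regulatory element, or SRE, GTGGNGTG on the other strand). Hmgcs1 lies at chr2:53382054-53382353 on the plus strand, Idi1 at chr17:66547475-66547774 on the minus strand, Dhcr7 at chr1:208444184-208444483 on the plus strand and Insig1 at chr4:8057720-8058019 on the minus strand.
Hmgcs1: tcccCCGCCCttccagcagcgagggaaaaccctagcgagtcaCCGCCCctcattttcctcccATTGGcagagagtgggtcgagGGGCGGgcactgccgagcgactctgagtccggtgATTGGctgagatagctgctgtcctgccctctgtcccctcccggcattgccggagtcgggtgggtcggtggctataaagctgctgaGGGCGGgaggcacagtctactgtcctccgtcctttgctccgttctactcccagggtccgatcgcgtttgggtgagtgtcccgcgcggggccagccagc
Idi1: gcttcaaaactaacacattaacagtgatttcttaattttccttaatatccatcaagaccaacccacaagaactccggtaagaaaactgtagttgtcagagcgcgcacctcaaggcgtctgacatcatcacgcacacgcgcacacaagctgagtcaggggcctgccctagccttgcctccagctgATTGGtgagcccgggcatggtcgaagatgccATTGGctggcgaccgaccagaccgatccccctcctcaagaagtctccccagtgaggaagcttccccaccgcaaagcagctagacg
Dhcr7: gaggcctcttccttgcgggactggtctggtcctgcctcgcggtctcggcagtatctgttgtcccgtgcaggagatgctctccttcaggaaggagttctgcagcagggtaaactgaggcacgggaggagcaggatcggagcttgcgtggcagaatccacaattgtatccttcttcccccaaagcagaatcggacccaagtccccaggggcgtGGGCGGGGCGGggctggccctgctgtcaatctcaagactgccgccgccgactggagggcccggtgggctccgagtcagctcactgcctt
Insig1: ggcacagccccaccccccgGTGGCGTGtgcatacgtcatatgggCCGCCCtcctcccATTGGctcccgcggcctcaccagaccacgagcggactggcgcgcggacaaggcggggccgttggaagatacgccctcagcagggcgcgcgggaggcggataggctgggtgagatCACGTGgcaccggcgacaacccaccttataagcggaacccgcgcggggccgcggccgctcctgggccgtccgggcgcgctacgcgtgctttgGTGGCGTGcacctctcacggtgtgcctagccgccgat

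The Hmgcs1 window held 2 NF-Y boxes and 4 Sp1 boxes, the Idi1 window 2 NF-Y boxes and the Dhcr7 window 2 overlapping Sp1 boxes. The Insig1 window held 1 NF-Y box, 1 Sp1 box, 1 E-box and 2 SRE cores. RefSeq gave windows for 24 of the 31 genes, 25 windows in all because Srebf1 has 2. The genes with no window in the table were Pmvk, Fdft1, Sqle, Stard4, Fasn, Acaca and Elovl6. CCAAT stood in 20 of the 25 windows (80%), against 36.4% of the 12343 windows of tested genes and 37.5% of all 33469 windows of this length. GGGCGG stood in 22 of the 25 (88%), against 57.6% of the windows of tested genes and 33.1% of all. The median GC content was 65.3% in the 25 windows, against 60% in those of tested genes and 51.7% in all. The longer SRE form TCACNCCAC, which contains the core, stood in 0 of the 25 windows, against 1.11% of the windows of tested genes and 1.12% of all. A form of 10 letters that contains it in turn stood in 0 of the 25, against 0.13% and 0.269%. The core itself, searched after the longer forms gave no match, stood in the windows of Acat2, Ebp, Fads1 and Insig1 (4 of 25, 16%), against 5.99% of the windows of tested genes and 5.8% of all. CACGTG stood in those of Insig1, Sc5d and Scap (12%), against 8.74% and 6.42%. A match is a run of letters and not a measured binding site.

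**Figure D1:**
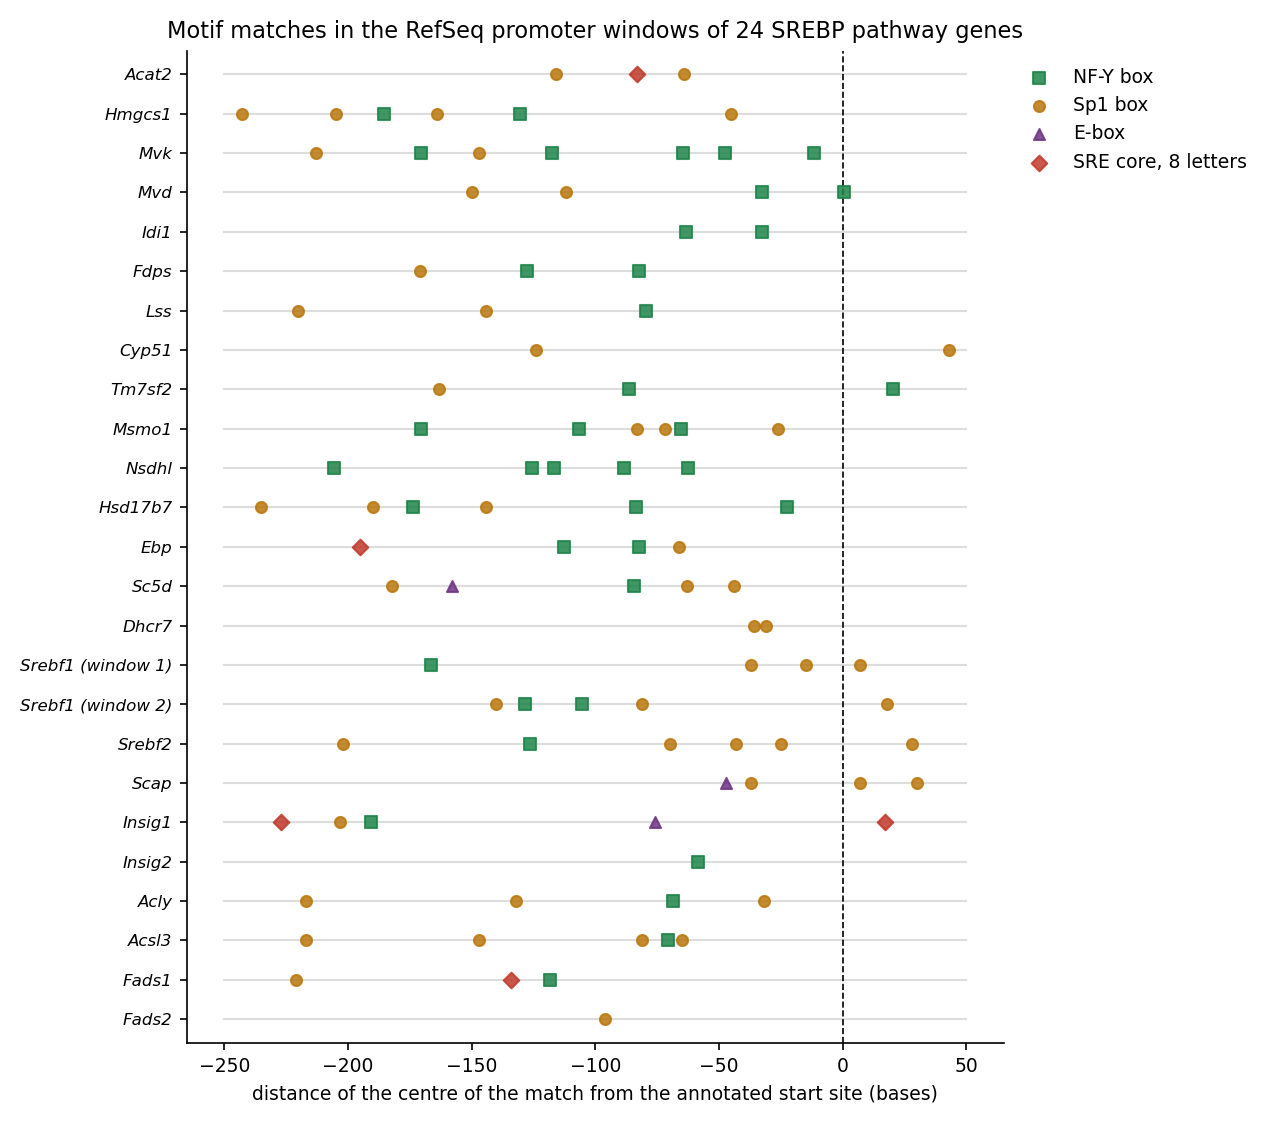
Position of motif matches in the 25 RefSeq promoter windows of 24 SREBP pathway genes, as the distance in bases of the match's centre from the annotated start site (dashed line). Green squares mark CCAAT, orange circles GGGCGG, purple triangles CACGTG and red diamonds the 8-letter SRE core; Mvk and Nsdhl hold 5 CCAAT boxes each, and the windows without a square are those of Acat2, Cyp51, Dhcr7, Scap and Fads2.

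Counts summed to between 23193408 and 26836323 per library with IL-1β, 25643226 and 28698783 with LPS, and 20873934 and 32090924 in control cultures. At this depth a member had between 159 counts (Tm7sf2) and 9115 counts (Hmgcs1) in a library, and replicates of a group differed by more than counting error, with a chi-square of 1.82 to 5.21 per gene. The median coefficient of variation of a member within a group was 3.96%, with a range of 1.02% (Msmo1) to 10.4% (Sqle). The 7 theca markers were detected in every group and summed to 618 to 667 CPM per library with IL-1β, 469.6 to 528 CPM with LPS and 236 to 266 CPM in control cultures, with 7 of 7 called higher with IL-1β and 5 of 7 with LPS. Insl3, a defining theca gene, had only 4 to 8 counts in each control library, and Cyp17a1 had 12 to 18. Most of the control sum came from Star, Nr5a1 and Ptch1, which averaged 141, 70.6 and 33.7 CPM there. Cyp11a1 and Lhcgr averaged 3.55 and 2.02 CPM in control cultures. The 6 granulosa markers were present as well, at 626 to 784 CPM with IL-1β, 482 to 601 CPM with LPS and 461 to 505 CPM in control cultures. Of these, 3 were higher and 2 lower with IL-1β, and 2 higher and 1 lower with LPS. Their control sum came mostly from Inha, Inhba and Foxl2, which averaged 280, 145 and 55.1 CPM there. Fshr averaged only 2.97 CPM in control cultures, where Amh had 30 to 56 counts per library and Cyp19a1 had 0 to 8.

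Levels are given in CPM, that is, counts relative to TMM-scaled library sizes, which serve to compare libraries for a gene but not genes with each other. Differences are log2 fold changes ± SE from edgeR's quasi-likelihood test, called at a Benjamini-Hochberg adjusted p under 0.05 over all 17330 genes. With IL-1β, 27 of the 31 SREBP pathway genes rose, 0 fell and 4 were not called (Sqle, Sc5d, Insig1 and Insig2). At an unadjusted p under 0.05, edgeR likewise gave 27 higher and 0 lower, and DESeq2 gave 27 and 0 at its adjusted threshold. Of all genes tested, 24.7% were called higher and 23.0% lower in this comparison. With scaling by library size alone the numbers over all genes were 5558 higher and 3118 lower with IL-1β, against 4273 and 3988 with TMM. Among the 10317 genes with a mean level at least that of the lowest member, 27.8% were higher and 28.3% lower. The members' median log2 fold change was 0.34, with a range of -0.039 to 0.79, against 0.01 over all genes. In 27 members every IL-1β library lay above every control library, and groups without overlap in either direction made up 44.2% of all genes. The members took 0.323% ± 0.0104 of all counts with IL-1β, 0.287% ± 0.00635 with LPS and 0.248% ± 0.00109 in control cultures (SD, n = 4 each).

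With LPS, 19 members rose, 1 fell (Sc5d) and 11 were not called. The background in this comparison was 22.5% of all genes higher and 20.0% lower, and 28.2% and 22.5% at the members' level of expression. With library size alone 5011 of all genes were higher and 2896 lower, against 3898 and 3460 with TMM. The median of the members was 0.18, with a range of -0.14 to 0.56, against 0.01 over all genes. In 18 members every LPS library lay above every control library, and in 0 every LPS library lay below, against 38.3% of all genes without overlap in either direction. All 19 genes that rose with LPS also rose with IL-1β, but both comparisons use the same 4 control libraries. By role, the median log2 fold change for IL-1β was 0.49 for the 7 enzymes from acetoacetyl-CoA to farnesyl diphosphate, 0.52 for the 11 from squalene to cholesterol, 0.30 for the 6 regulators and sterol carrier and 0.17 for the 7 fatty acid genes. For LPS the same medians were 0.29, 0.22, 0.16 and 0.03.

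**Figure D2:**
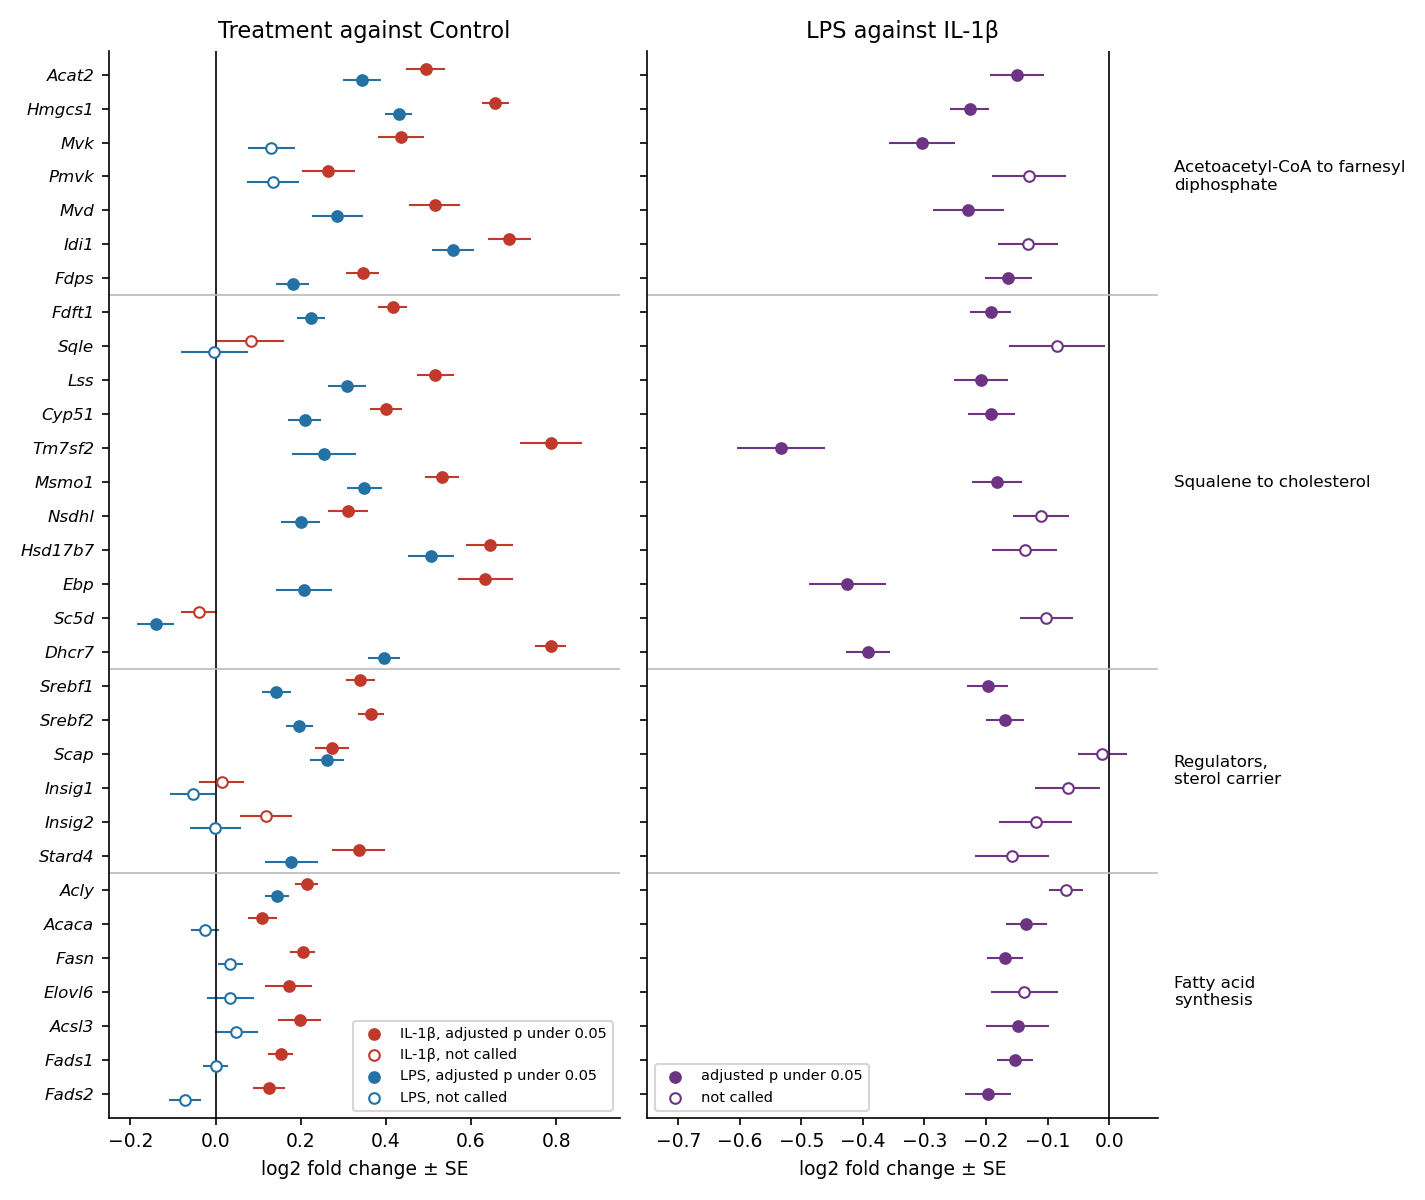
Log2 fold change ± SE of the 31 SREBP pathway genes, grouped by role, for IL-1β (red) and LPS (blue) against control on the left and for LPS against IL-1β on the right; filled circles are called at an adjusted p under 0.05. The 27 filled red circles all lie right of 0, and all 31 values on the right-hand side lie left of it.

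In bulk RNA, fewer cells of a type and less RNA per cell cannot be told apart, which applies to every level given here. Markers of other cell types moved with both treatments. The 6 smooth muscle markers summed to 1475 to 1676 CPM with IL-1β, 1786 to 2032 CPM with LPS and 4625 to 5018 CPM in control cultures, with 5 of 6 called lower in both. The sixth, Des, was higher with IL-1β (0.30 ± 0.052, adjusted p = 8.14e-05) and not called with LPS. The 9 macrophage markers summed to 45.1 to 49.6 CPM with IL-1β, 44.1 to 49.6 CPM with LPS and 99.97 to 105 CPM in control cultures. With each treatment 8 of 9 were called lower, and 1, Emr1, was higher with LPS. Emr1 averaged 21.9 CPM with LPS, 5.95 CPM with IL-1β and 17.6 CPM in control cultures. The similar sums of the treated groups thus do not mean similar levels of the single markers. The 7 endothelial markers went the other way, at 254 to 287 CPM with IL-1β, 181 to 239 CPM with LPS and 116 to 136 CPM in control cultures, with 7 of 7 higher with IL-1β and 6 of 7 with LPS. The adipocyte list was at 22.7 to 26.3 CPM with IL-1β, 19.2 to 20.8 CPM with LPS and 45.6 to 48.5 CPM in control cultures, and all 3 of its 7 genes that passed the filter were lower with both. Adipoq, the defining gene of that list, had 0 to 3 counts per library. Epithelial markers were at 13.2 to 14.6 CPM with IL-1β, 11.7 to 15.4 CPM with LPS and 31.2 to 33.3 CPM in control cultures, with 3 of 5 lower in both. Between LPS and IL-1β, all 7 endothelial, 5 of 7 theca, 7 of 9 macrophage and 2 of 6 granulosa markers were called lower with LPS, and 1 macrophage marker higher. In the same comparison 3 smooth muscle markers were higher and 1 lower, 1 of the 3 adipocyte genes was higher and 1 lower, and 0 of 5 epithelial markers were called in edgeR (0 higher and 1 lower at an unadjusted p under 0.05). No marker in these lists was at 0 counts in every library of a group. The part of these shifts in the results on SREBP pathway genes was not tested.

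Among the regulators, the transcripts for both SREBPs and for SCAP rose with both treatments, and those for both INSIG proteins were not called. Srebf2, whose product drives cholesterol synthesis genes, was at 146, 138, 142 and 144 CPM with IL-1β, 132, 123, 129.7 and 123 CPM with LPS and 112, 111, 107 and 113 CPM in control cultures. Every treated library lay above every control library, and every IL-1β library above every LPS library. The log2 fold change of Srebf2 was 0.37 ± 0.031 (adjusted p = 7.54e-11) for IL-1β and 0.20 ± 0.031 (adjusted p = 6.77e-06) for LPS. Srebf1, whose products drive fatty acid synthesis genes, was at 79.98, 77.03, 76.8 and 80.5 CPM with IL-1β, 70.7, 67.4, 68.2 and 67.8 CPM with LPS and 60.7, 64.7, 59.4 and 63.2 CPM in control cultures. The groups stood in the same order, again without overlap, with log2 fold changes of 0.34 ± 0.034 (adjusted p = 2.34e-09) for IL-1β and 0.14 ± 0.034 (adjusted p = 0.00122) for LPS. Scap was at 106, 102, 101 and 112 CPM with IL-1β, 106, 111, 96.5 and 104 CPM with LPS and 89.7, 89.2, 85.3 and 84.2 CPM in control cultures. Its treated libraries lay above the control libraries, but the IL-1β and LPS libraries overlapped, and both log2 fold changes were close in size, at 0.27 ± 0.040 (adjusted p = 2.95e-06) for IL-1β and 0.26 ± 0.040 (adjusted p = 6.08e-06) for LPS.

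Insig1, itself a known SREBP target and the retention factor for SCAP, was at 185, 168, 188 and 166 CPM with IL-1β, 161, 159, 185 and 169.9 CPM with LPS and 181, 164, 178 and 177 CPM in control cultures. The 3 groups overlapped. Its log2 fold change was 0.014 ± 0.053 (adjusted p = 0.852) for IL-1β, with a 95% interval of -0.090 to 0.12, and -0.053 ± 0.053 (adjusted p = 0.463) for LPS, with an interval of -0.16 to 0.051. The interval for IL-1β thus ended below the log2 fold change of every sterol enzyme that was called in that comparison. Insig2, which encodes the second INSIG protein, was at 21.9, 24.1, 21.9 and 20.9 CPM with IL-1β, 22.1, 20.6, 21.2 and 17.9 CPM with LPS and 20.3, 20.998, 19.7 and 20.7 CPM in control cultures. These groups overlapped too, with 0.12 ± 0.060 (adjusted p = 0.108) for IL-1β (interval 0.00081 to 0.24) and -0.00060 ± 0.060 (adjusted p = 0.995) for LPS (interval -0.12 to 0.12). The IL-1β interval of Insig2 leaves out 0, although the quasi-likelihood test gave an unadjusted p of 0.0588, because the intervals are normal ones. With scaling by library size alone the IL-1β value of Insig2 was 0.17 (adjusted p = 0.0238). Stard4, a carrier that moves cholesterol between membranes, was at 22.9, 19.1, 22.6 and 20.9 CPM with IL-1β, 20.2, 17.8, 20.3 and 18.4 CPM with LPS and 17.1, 16.7, 17.7 and 16.4 CPM in control cultures. Each treated group lay above the control group, by 0.34 ± 0.062 (adjusted p = 4.99e-05) for IL-1β and 0.18 ± 0.062 (adjusted p = 0.0216) for LPS. The LPS call on Stard4 was lost without control replicate 2, at 0.17 (adjusted p = 0.051), control replicate 4, at 0.16 (adjusted p = 0.0665), LPS replicate 1, at 0.15 (adjusted p = 0.0716), or LPS replicate 3, at 0.15 (adjusted p = 0.0643).

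**Figure D3:**
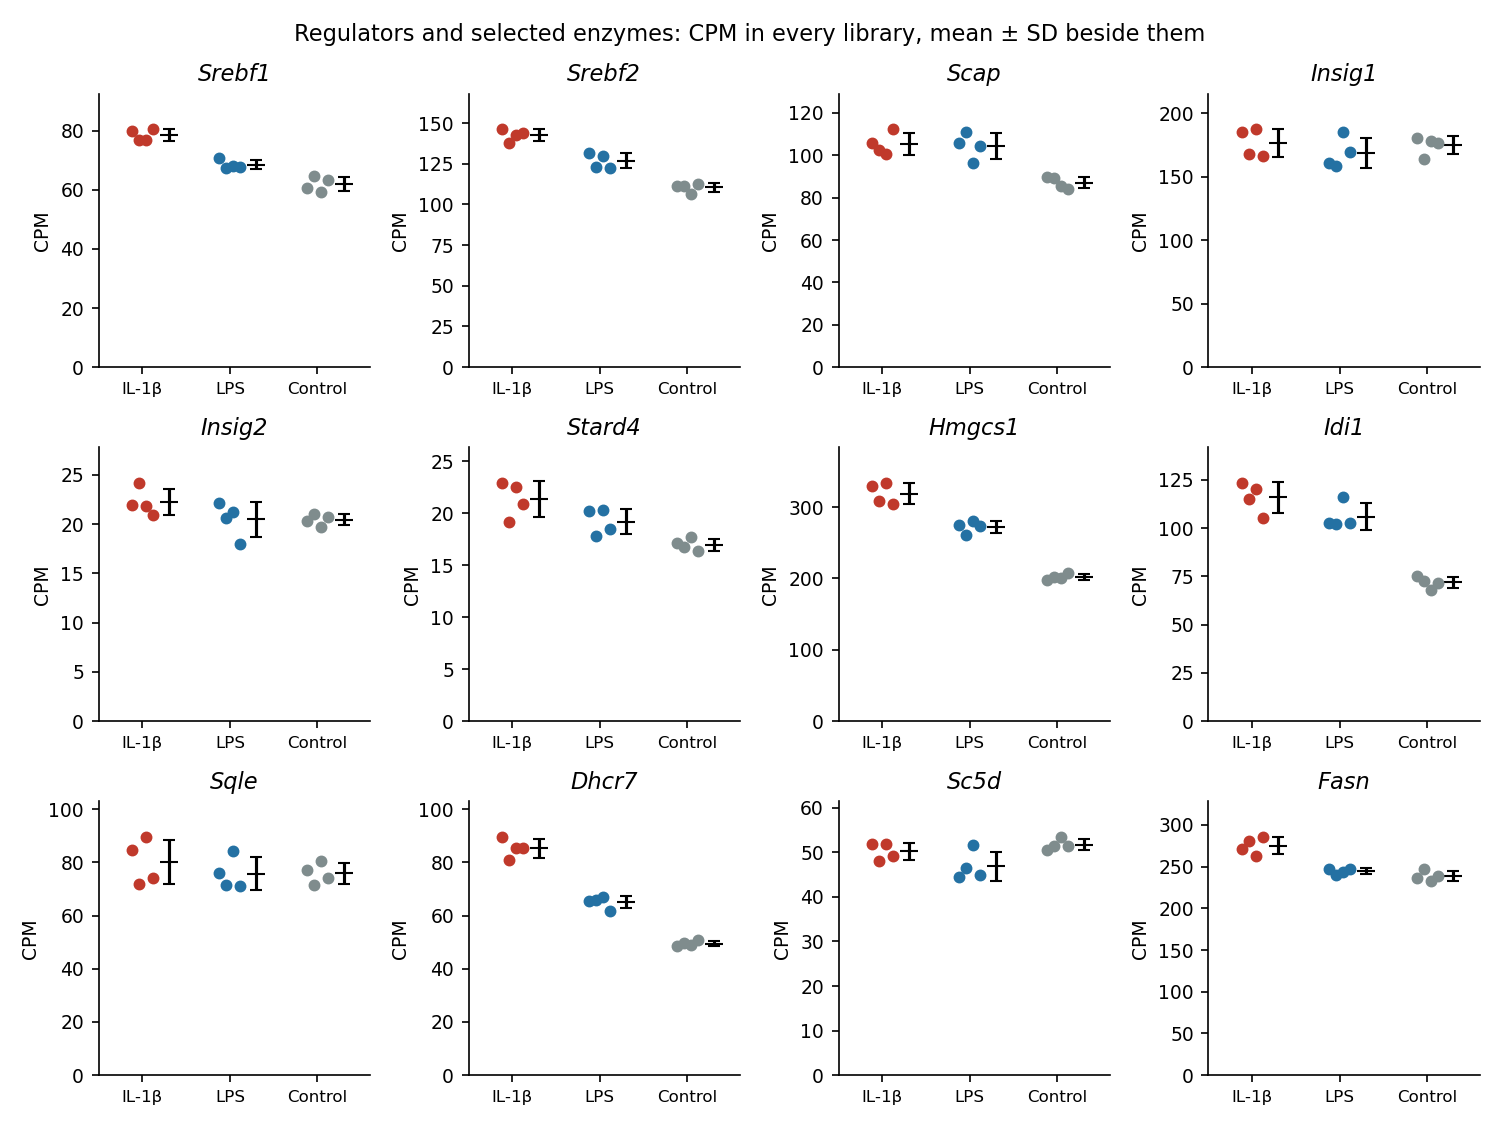
Level in CPM in each of the 12 libraries for the SREBP regulators, Stard4 and 6 enzymes (Hmgcs1, Idi1, Sqle, Dhcr7, Sc5d and Fasn), with IL-1β left, LPS in the middle and control right in each panel; points are libraries and the bars beside them are group means ± SD (n = 4). Srebf1 and Srebf2 stand in 3 steps without overlap, and the 3 groups of Insig1 overlap.

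All 7 enzymes from acetoacetyl-CoA to farnesyl diphosphate rose with IL-1β, and 5 of 7 rose with LPS. Hmgcs1, which makes HMG-CoA and so feeds the mevalonate route, was at 329.6, 308, 333 and 304 CPM with IL-1β, 274, 261, 281 and 274 CPM with LPS and 198, 202, 201 and 208 CPM in control cultures. The 3 groups did not overlap, and the gene stood 1.58-fold higher with IL-1β and 1.35-fold higher with LPS. Its log2 fold change was 0.66 ± 0.032 (adjusted p = 3.90e-16) for IL-1β and 0.43 ± 0.032 (adjusted p = 4.97e-12) for LPS. Idi1, the isomerase of isopentenyl diphosphate, was at 123, 115, 121 and 105 CPM with IL-1β, 103, 102, 116 and 103 CPM with LPS and 75.003, 72.6, 68.2 and 71.7 CPM in control cultures. All treated libraries lay above the control libraries, while LPS replicate 3 lay among the IL-1β libraries. The log2 fold change of Idi1 was 0.69 ± 0.050 (adjusted p = 2.32e-09) for IL-1β and 0.56 ± 0.050 (adjusted p = 5.40e-08) for LPS, where no member had a higher value. Acat2, the cytosolic thiolase that makes acetoacetyl-CoA, was at 54.5, 47.9, 56.7 and 53.8 CPM with IL-1β, 47.2, 48.2, 49.8 and 47.1 CPM with LPS and 38.6, 37.8, 35.9 and 38.7 CPM in control cultures. Both treated groups lay above the control group, by 0.49 ± 0.045 (adjusted p = 3.22e-10) for IL-1β and 0.34 ± 0.045 (adjusted p = 3.44e-07) for LPS.

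The other 4 genes of this stretch are known by their places along the route. Mvd, the decarboxylase that yields isopentenyl diphosphate, averaged 29.6 ± 1.68 CPM with IL-1β, 25.2 ± 0.763 CPM with LPS and 20.8 ± 2.02 CPM in control cultures (SD, n = 4 each), with log2 fold changes of 0.51 ± 0.059 and 0.29 ± 0.060 for IL-1β and LPS. Fdps, which builds farnesyl diphosphate, averaged 225 ± 14.2 CPM with IL-1β, 201 ± 9.20 CPM with LPS and 177 ± 3.60 CPM in control cultures, with 0.35 ± 0.038 for IL-1β and 0.18 ± 0.039 for LPS. Both were called in both comparisons. Mevalonate kinase, Mvk, averaged 22.7 ± 0.903 CPM with IL-1β, 18.3 ± 0.840 CPM with LPS and 16.8 ± 0.484 CPM in control cultures, and rose with IL-1β by 0.44 ± 0.054 (adjusted p = 1.08e-07). For LPS its value was 0.13 ± 0.055 (adjusted p = 0.054), not called, although all 4 LPS libraries lay above the control libraries, the lowest by a margin too small for the digits given (17.2 CPM in both). It was called without LPS replicate 1, at 0.16 (adjusted p = 0.0266), and with library size alone, at 0.17 (adjusted p = 0.0114). Phosphomevalonate kinase, Pmvk, averaged 20.4 ± 1.39 CPM with IL-1β, 18.7 ± 0.848 CPM with LPS and 16.98 ± 1.16 CPM in control cultures, with 0.27 ± 0.062 (adjusted p = 7.55e-04) for IL-1β and 0.13 ± 0.062 (adjusted p = 0.0804), not called, for LPS. The LPS value of Pmvk was called without control replicate 4, at 0.17 (adjusted p = 0.04), without LPS replicate 3, at 0.16 (adjusted p = 0.041), and with library size alone, at 0.17 (adjusted p = 0.0237).

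Of the 11 enzymes from squalene to cholesterol, 9 rose with each treatment. Dhcr7, whose enzyme completes cholesterol synthesis by reducing its dehydro precursor, was at 89.4, 80.7, 85.4 and 85.4 CPM with IL-1β, 65.5, 65.9, 66.9 and 61.7 CPM with LPS and 48.4, 49.8, 48.8 and 50.6 CPM in control cultures. No library of any group reached into another group. Dhcr7 stood 1.73-fold higher with IL-1β and 1.32-fold higher with LPS, log2 fold changes of 0.79 ± 0.037 (adjusted p = 1.83e-16) and 0.40 ± 0.037 (adjusted p = 7.55e-10). Tm7sf2, a sterol reductase of the same route, was at 14.7, 14.3, 14.9 and 14.7 CPM with IL-1β, 10.2, 10.2, 9.12 and 10.99 CPM with LPS and 7.90, 8.78, 7.76 and 9.38 CPM in control cultures. The IL-1β libraries stood apart from all others, while LPS replicate 3 lay within the control range. Its log2 fold change was 0.79 ± 0.073 (adjusted p = 4.67e-10) for IL-1β, the highest of any member, and 0.26 ± 0.076 (adjusted p = 0.00752) for LPS. Tm7sf2 was the member with the lowest counts, so its values carried the most counting error.

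Hsd17b7, a ketosterol reductase of the demethylation steps, was at 26.8, 25.6, 27.1 and 24.4 CPM with IL-1β, 24.1, 22.01, 24.7 and 23.8 CPM with LPS and 17.2, 16.9, 16.8 and 15.7 CPM in control cultures. All treated libraries lay above the control libraries, with 0.64 ± 0.055 (adjusted p = 7.56e-11) for IL-1β and 0.51 ± 0.055 (adjusted p = 1.12e-08) for LPS. Ebp, the sterol isomerase, was at 16.6, 17.2, 16.9 and 16.8 CPM with IL-1β, 13.6, 11.9, 12.3 and 12.6 CPM with LPS and 11.1, 11.9, 10.3 and 10.2 CPM in control cultures. With IL-1β its libraries lay above all others, whereas LPS replicate 2 and control replicate 2 were level to the digits given. Its log2 fold change was 0.63 ± 0.064 (adjusted p = 2.72e-09) for IL-1β and 0.21 ± 0.066 (adjusted p = 0.0119) for LPS. The LPS call on Ebp was lost without control replicate 4, at 0.18 (adjusted p = 0.0524), or LPS replicate 1, at 0.17 (adjusted p = 0.053).

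The remaining sterol enzymes that rose did so with both treatments. Msmo1, the methylsterol oxidase, averaged 149 ± 8.22 CPM with IL-1β, 132 ± 8.45 CPM with LPS and 103 ± 1.06 CPM in control cultures, with 0.53 ± 0.041 for IL-1β and 0.35 ± 0.041 for LPS. Lss, which closes the sterol rings to make lanosterol, averaged 88.5 ± 4.91 CPM with IL-1β, 76.7 ± 2.25 CPM with LPS and 61.9 ± 4.25 CPM in control cultures, with 0.52 ± 0.044 and 0.31 ± 0.044. Fdft1, squalene synthase, averaged 111 ± 3.99 CPM with IL-1β, 97.3 ± 4.11 CPM with LPS and 83.3 ± 1.67 CPM in control cultures, with 0.42 ± 0.034 and 0.22 ± 0.034. Each of these 3 had adjusted p-values of at most 3.83e-06, and their treated libraries did not overlap the control libraries. Cyp51, the lanosterol demethylase, averaged 198 ± 11.2 CPM with IL-1β, 174 ± 9.39 CPM with LPS and 150.3 ± 2.41 CPM in control cultures, with 0.40 ± 0.038 and 0.21 ± 0.038. Nsdhl, a sterol dehydrogenase of the demethylation steps, averaged 61.3 ± 5.02 CPM with IL-1β, 56.9 ± 1.72 CPM with LPS and 49.6 ± 1.96 CPM in control cultures, with 0.31 ± 0.047 and 0.20 ± 0.047.

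Sqle and Sc5d were not called higher with either treatment. Sqle, squalene epoxidase, was at 84.6, 71.9, 89.5 and 74.3 CPM with IL-1β, 76.1, 71.4, 84.4 and 70.96 CPM with LPS and 77.1, 71.4, 80.6 and 74.3 CPM in control cultures. The groups overlapped throughout, with 0.082 ± 0.078 (adjusted p = 0.429) for IL-1β (95% interval -0.071 to 0.24) and -0.0026 ± 0.078 (adjusted p = 0.983) for LPS (interval -0.16 to 0.15). With IL-1β, Sqle had the highest coefficient of variation of any member in any group, at 10.4%. It was 8.26% with LPS and 5.20% in control cultures, where in both cases other members had higher values. The upper end of each interval of Sqle lay below the value of each of the 9 enzymes of this stretch that rose in that comparison. That end lay within the interval of Nsdhl for IL-1β, and within those of Nsdhl, Cyp51, Tm7sf2 and Ebp for LPS. Differences between genes were not tested. Sc5d, the sterol desaturase that acts just before Dhcr7, was at 51.8, 48.1, 51.8 and 49.2 CPM with IL-1β, 44.5, 46.5, 51.6 and 44.9 CPM with LPS and 50.5, 51.5, 53.4 and 51.3 CPM in control cultures. Its IL-1β value was -0.039 ± 0.043 (adjusted p = 0.49), with an interval of -0.12 to 0.046. With LPS it fell, with a log2 fold change of -0.14 ± 0.043 (adjusted p = 0.00935), and LPS replicate 3 overlapped the control range. With scaling by library size alone the LPS value of Sc5d was -0.10 (adjusted p = 0.0544), not called.

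Among the fatty acid genes the log2 fold changes were smaller than among most sterol enzymes. All 7 rose with IL-1β, by log2 fold changes of 0.11 to 0.21, and 1 of 7, Acly, rose with LPS. Acly, which makes cytosolic acetyl-CoA from citrate for both routes, was at 311, 294, 293 and 293 CPM with IL-1β, 279, 278, 286 and 291 CPM with LPS and 259, 259, 249 and 259 CPM in control cultures. Its 3 groups did not overlap, with 0.21 ± 0.028 (adjusted p = 2.42e-07) for IL-1β and 0.14 ± 0.028 (adjusted p = 1.02e-04) for LPS. Fasn, fatty acid synthase, averaged 275 ± 10.04 CPM with IL-1β, 245 ± 3.22 CPM with LPS and 239 ± 6.42 CPM in control cultures, with 0.20 ± 0.029 (adjusted p = 9.72e-07) for IL-1β and 0.035 ± 0.029 (adjusted p = 0.352), not called, for LPS. With library size alone the LPS value of Fasn was 0.074 (adjusted p = 0.0285). Acaca, the carboxylase that makes malonyl-CoA, was at 80.1, 78.7, 73.5 and 77.8 CPM with IL-1β, 68.6, 70.9, 72.6 and 70.4 CPM with LPS and 70.97, 70.4, 72.5 and 73.4 CPM in control cultures. The IL-1β libraries lay above the control libraries by a narrow margin, while the LPS libraries overlapped them, with 0.11 ± 0.033 (adjusted p = 0.00785) for IL-1β and -0.024 ± 0.033 (adjusted p = 0.601) for LPS.

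Elovl6, which lengthens palmitate, was at 26.5, 26.4, 26.9 and 25.01 CPM with IL-1β, 21.2, 23.6, 25.9 and 24.7 CPM with LPS and 22.2, 23.9, 23.8 and 23.4 CPM in control cultures. Every IL-1β library was above every control library and the LPS libraries lay on both sides, with 0.17 ± 0.055 (adjusted p = 0.0113) for IL-1β and 0.035 ± 0.055 (adjusted p = 0.653) for LPS. Acsl3, which activates fatty acids with coenzyme A, was at 55.2, 60.5, 50.1 and 55.4 CPM with IL-1β, 45.7, 48.9, 50.9 and 53.9 CPM with LPS and 47.9, 49.8, 47.6 and 47.4 CPM in control cultures. Its IL-1β libraries were again above the control libraries and its LPS libraries on both sides, with 0.20 ± 0.051 (adjusted p = 0.00247) and 0.049 ± 0.051 (adjusted p = 0.472). Fads1, a desaturase of polyunsaturated fatty acids, was at 168, 158, 165 and 160.4 CPM with IL-1β, 144, 146, 149 and 148 CPM with LPS and 145, 141, 151 and 149.5 CPM in control cultures. With IL-1β it rose by 0.15 ± 0.029 (adjusted p = 8.47e-05), while for LPS the value was 0.00076 ± 0.029 (adjusted p = 0.986). Fads2, the desaturase that acts before it, was at 76.8, 77.9, 80.2 and 77.9 CPM with IL-1β, 68.2, 65.4, 66.1 and 73.2 CPM with LPS and 67.6, 73.3, 73.004 and 73.2 CPM in control cultures. The IL-1β libraries lay above all others, with 0.13 ± 0.037 (adjusted p = 0.00658), and the LPS value was -0.071 ± 0.037 (adjusted p = 0.13), not called. The LPS value of Fads2 was called lower without control replicate 1, at -0.10 (adjusted p = 0.0393), or without LPS replicate 4, at -0.11 (adjusted p = 0.023).

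LPS was then compared with IL-1β directly, which tests the difference between the treatments. Of the 31 members, 0 were higher with LPS, 19 were lower and 12 were not called, and all 31 log2 fold changes were below 0. At an unadjusted p under 0.05, edgeR gave 0 higher and 27 lower, and DESeq2 gave 0 and 20 at its adjusted threshold. Of all genes, 11.3% were called higher and 10.6% lower, and at the members' level of expression 16.8% and 11.5%. The median of the members was -0.16, and in 15 members every LPS library lay below every IL-1β library, against 21.6% of all genes without overlap in either direction. The count of 19 was 23 without LPS replicate 3. The calls on cell type markers in this comparison, given with the other marker values, included all 7 endothelial and 5 of 7 theca markers lower with LPS, and their part in these differences was not tested. The differences called were largest for Tm7sf2 (-0.53 ± 0.071, adjusted p = 2.97e-06), Ebp (-0.43 ± 0.063, adjusted p = 1.29e-05) and Dhcr7 (-0.39 ± 0.036, adjusted p = 4.85e-09). They were smallest for Acaca (-0.13 ± 0.033, adjusted p = 0.00424), Acsl3 (-0.15 ± 0.050, adjusted p = 0.0374) and Acat2 (-0.15 ± 0.044, adjusted p = 0.0144).

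By role, 5 of 7 genes from acetoacetyl-CoA to farnesyl diphosphate, 7 of 11 from squalene to cholesterol, 2 of 6 among the regulators and sterol carrier and 5 of 7 fatty acid genes were lower with LPS than with IL-1β. The regulators called were Srebf1 (-0.20 ± 0.034, adjusted p = 9.04e-05) and Srebf2 (-0.17 ± 0.031, adjusted p = 1.91e-04). Scap, at -0.011 ± 0.039 (adjusted p = 0.889), had an interval of -0.088 to 0.066. Of the 8 genes called with IL-1β and not with LPS, 6 were also lower in this direct comparison, namely Mvk (-0.30 ± 0.053), Acaca, Fasn (-0.17 ± 0.029), Acsl3, Fads1 (-0.15 ± 0.029) and Fads2 (-0.20 ± 0.037). Pmvk (-0.13 ± 0.061, adjusted p = 0.132) and Elovl6 (-0.14 ± 0.055, adjusted p = 0.0732) were not called with all libraries and TMM.

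Several of these direct comparisons turned on 1 library or on the scaling. Acat2 was not called without IL-1β replicate 3, at -0.12 (adjusted p = 0.0763). Acsl3 was not called without any of 7 libraries, among them IL-1β replicate 2, at -0.10 (adjusted p = 0.158), and LPS replicate 1, at -0.11 (adjusted p = 0.117). For the other 5, control replicate 3, IL-1β replicates 1 and 4 and LPS replicates 2 and 3, its value lay between -0.16 and -0.14. Idi1 (-0.13 ± 0.049, adjusted p = 0.0639) was called lower without IL-1β replicate 4, at -0.18 (adjusted p = 0.00411), or LPS replicate 3, at -0.18 (adjusted p = 0.00295). Hsd17b7 (-0.14 ± 0.052, adjusted p = 0.0595) was called without the same libraries, at -0.17 (adjusted p = 0.0343) and -0.16 (adjusted p = 0.0484). Stard4 (-0.16 ± 0.061, adjusted p = 0.0633) was called without IL-1β replicate 2, at -0.21 (adjusted p = 0.0193), LPS replicate 1, at -0.18 (adjusted p = 0.0412), or LPS replicate 3, at -0.18 (adjusted p = 0.0457). Without IL-1β replicate 4, Pmvk was at -0.18 (adjusted p = 0.0435) and Nsdhl (-0.11 ± 0.046, adjusted p = 0.0902 with all libraries) at -0.15 (adjusted p = 0.0149). Without LPS replicate 3, Sc5d (-0.10 ± 0.043, adjusted p = 0.0972 with all libraries) was at -0.15 (adjusted p = 0.00984) and Elovl6 at -0.18 (adjusted p = 0.0259). With library size alone Elovl6 was at -0.15 (adjusted p = 0.0469), and with upper-quartile factors at -0.15 (adjusted p = 0.0496). Both scalings also called Idi1, Hsd17b7, Stard4 and Acly lower, which made 24 members.

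The replicates of each group were also ranked for every member. LPS replicate 3 was the highest of its 4 libraries in 18 of 31 members (58.1%), and in 13 of the 18 enzymes from acetoacetyl-CoA to cholesterol, against 28.1% of all genes tested. LPS replicate 2 was the lowest in 15 of 31 members, against 24.4% of all genes, and the highest in 1 (3.23%), against 23.4%. With IL-1β, replicate 3 was the highest in 14 members (45.2%), against 25.3% of all genes, and in 11 of the 18 sterol enzymes. The lowest IL-1β library was replicate 2 in 11 of 31 members and replicate 4 in 12, against 24.7% and 26.4% of all genes. In control cultures no replicate was the highest in more than 9 of 31 members (29%), against 24.6% to 25.4% of all genes. Control replicate 1 was the lowest in 11 of 31 members, against 25.5% of all genes. This pattern was noticed in these data and is given as a description.

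**Figure D4:**
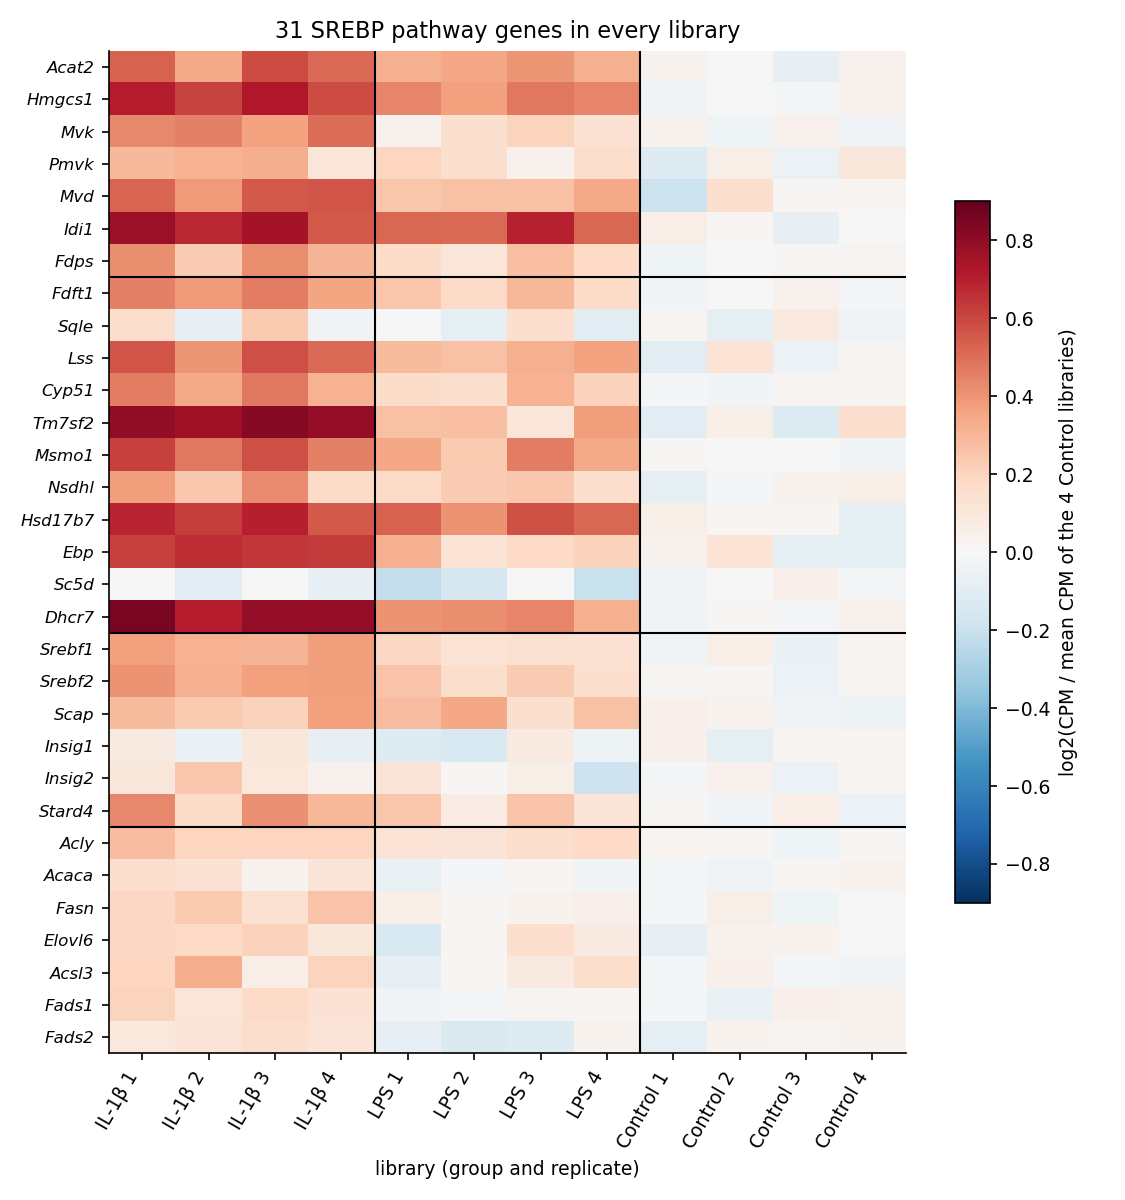
Level of the 31 SREBP pathway genes (rows, by role) in the 12 libraries (columns, IL-1β, LPS, control), each row shown as the log2 ratio to the gene's mean over the 4 control libraries. Most sterol enzyme rows are high with IL-1β, intermediate with LPS and low in control cultures, while Sqle, Sc5d and Insig1 do not follow this order and most fatty acid rows stay near 0 with LPS, and LPS replicate 3 is the highest LPS library in 18 rows.

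Other genes of the pathway were taken from 4 lists outside the members. Genes that fell are named for having fallen, after their values were seen. The counts stand beside 24.7% of all genes higher and 23.0% lower with IL-1β, 22.5% and 20.0% with LPS, and 11.3% and 10.6% between LPS and IL-1β. Read against this background, the counts for SREBP processing and for the isoprenoid branches are not results about those lists. Of 8 genes that process SREBPs or regulate them at the endoplasmic reticulum, 3 rose and 1 fell with IL-1β (Rnf139, -0.11 ± 0.044), 3 rose with LPS, and none was called between LPS and IL-1β in edgeR (at an unadjusted p under 0.05, 1 higher and 1 lower). With IL-1β, Mbtps1, which makes the first cut in SREBPs, rose by 0.095 ± 0.027 and Erlin1, a sterol-sensing endoplasmic reticulum protein, by 0.13 ± 0.037. With LPS, Faf2, part of the degradation machinery of the endoplasmic reticulum, rose by 0.11 ± 0.031 and Mbtps2, which makes the second cut, by 0.14 ± 0.046. Between LPS and IL-1β the genes of this list with the smallest p were Erlin2 (0.077 ± 0.031, adjusted p = 0.0779) and Mbtps1 (-0.059 ± 0.027, adjusted p = 0.115).

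Of 10 further genes of fatty acid synthesis and NADPH supply that were tested, from a list of 12, 6 rose and 3 fell with IL-1β, 5 rose and 3 fell with LPS, and 6 were lower with LPS than with IL-1β. Scd, the stearoyl-CoA desaturase and a known SREBP target, was at 1945, 2014, 1885 and 1939 CPM with IL-1β, 1532, 1557, 1456 and 1545 CPM with LPS and 1159, 1234, 1193 and 1257 CPM in control cultures. The 3 groups did not overlap, with 0.68 ± 0.030 (adjusted p = 4.88e-17) for IL-1β, 0.33 ± 0.030 (adjusted p = 3.77e-10) for LPS and -0.35 ± 0.030 (adjusted p = 1.19e-09) between LPS and IL-1β. The IL-1β value was above that of each of the 7 fatty acid genes among the members. Slc25a1, the mitochondrial citrate carrier, rose by 0.43 ± 0.030 with IL-1β and 0.28 ± 0.030 with LPS. Me1, a source of NADPH for lipid synthesis, was lower with LPS than with IL-1β, at -0.19 ± 0.029. The 3 that fell with both treatments were Acacb, the carboxylase isoform tied to fatty acid oxidation (-0.64 ± 0.092 with IL-1β, -0.69 ± 0.091 with LPS), Gpam, which starts glycerolipid synthesis (-0.13 ± 0.034, -0.25 ± 0.034), and Lpin1, a phosphatidate phosphatase (-0.31 ± 0.052, -0.36 ± 0.051).

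Of 13 genes of the isoprenoid branches that leave the route at farnesyl diphosphate, 4 rose with IL-1β, 3 rose and 1 fell with LPS (Fntb, -0.21 ± 0.069), and 2 were lower with LPS than with IL-1β. Coq2, of ubiquinone synthesis, rose by 0.26 ± 0.045 with IL-1β and 0.21 ± 0.045 with LPS. Srd5a3, of dolichol synthesis, rose by 0.14 ± 0.045 with IL-1β, and Fnta, a prenyltransferase subunit, by 0.16 ± 0.038 with LPS. Fntb, the partner subunit of farnesyltransferase, and Dolk, dolichol kinase, were lower with LPS than with IL-1β, at -0.28 ± 0.070 and -0.13 ± 0.040. Among 6 genes related to oxysterols, 4 rose with IL-1β, 3 rose and 1 fell with LPS (Mylip, -0.33 ± 0.11), and none was called between LPS and IL-1β in edgeR (at an unadjusted p under 0.05, 0 higher and 1 lower). Ch25h, whose enzyme makes an oxysterol known to block SREBP processing, averaged 6.88 ± 0.395 CPM with IL-1β, 6.20 ± 0.768 CPM with LPS and 1.74 ± 0.502 CPM in control cultures (SD, n = 4 each), with 1.96 ± 0.14 (adjusted p = 4.70e-12) for IL-1β and 1.80 ± 0.14 (adjusted p = 3.54e-11) for LPS. Abcg1, a sterol exporter, averaged 88.4 ± 5.33 CPM with IL-1β, 74.9 ± 9.09 CPM with LPS and 35.5 ± 1.55 CPM in control cultures, with 1.31 ± 0.083 (adjusted p = 8.27e-08) for IL-1β and 1.08 ± 0.084 (adjusted p = 6.80e-07) for LPS. Between LPS and IL-1β, Abcg1 (-0.24 ± 0.077, adjusted p = 0.0516) and Nr1h2, an oxysterol receptor (-0.068 ± 0.036, adjusted p = 0.182), were the genes of this list with the smallest p.

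Genes that use cholesterol for steroid synthesis had larger changes against control than any of the 31 SREBP pathway genes. Star, which brings cholesterol into mitochondria, rose by 1.52 ± 0.073 with IL-1β and 1.33 ± 0.073 with LPS. Cyp11a1, the side-chain cleavage enzyme, rose by 4.40 ± 0.13 with IL-1β and 3.16 ± 0.14 with LPS. Cyp17a1, the enzyme that commits steroids to androgens, rose by 4.86 ± 0.31 and 2.68 ± 0.39. Both fold changes of Cyp17a1 start from a low level, at 12 to 18 counts in a control library, while Cyp11a1 had 73 to 123 counts there. Between LPS and IL-1β, Cyp11a1 and Cyp17a1 were lower with LPS, at -1.24 ± 0.091 and -2.19 ± 0.21, and Star was not called (-0.20 ± 0.069, adjusted p = 0.0686). How these changes relate to those of the sterol enzymes was not tested.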

How the data were processed

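Reads per gene symbol were deposited by the authors as raw counts, in 12 columns of 1 library each, without normalization. Per the labels' protocols, RNA was isolated with a MagMAX kit and libraries were made with the TruSeq Stranded mRNA kit for an Illumina HiSeq4000. Per the submitters' processing notes, reads were processed with TopHat2 2.1.1, with SAMtools and with DESeq2, on the rat build Rnor_6.0. The counting program and annotation are not given in the sources used here. No member had a numbered second copy or a nearly identical row in the table.

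Columns were matched to groups by their labels. Counts were filtered with filterByExpr, scaled by TMM and fitted with edgeR 4.0.16 in R 4.3.3 (glmQLFit, robust) on all 12 libraries, with group as the sole term. Two-sided quasi-likelihood F-tests gave p-values, adjusted by Benjamini-Hochberg over 17330 genes and called under 0.05. The SE is the absolute log2 fold change over the square root of F, and 95% intervals are normal intervals on it. Such intervals are narrower than the F-test implies. Alternatives were DESeq2 1.42.0, other scaling factors, other filters, a stricter threshold, summed copies, fits on 8 libraries, a replicate block and leaving out each library.

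The members, their role groups, the other pathway lists and the marker lists were chosen with earlier results of these data known. All members are named. Values of every library are given for the SREBP regulators and for the 4 highest and 4 lowest members called in each treatment, and the 3 and 3 most extreme between treatments. Sqle was added to these after its values were seen. Of each other list the 2 genes with the smallest p in each comparison are named. Some genes of the pathway are not reported here.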

Additional observations from a re-analysis of the deposited data

Results flagged for a closer look

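In 4 of the 93 groups of 4 libraries formed by the 31 SREBP pathway genes, 1 library stood far from the other 3, by Dixon's criterion at the 95% level. Chance alone flags about 1 group in 20. Idi1 was at 116 CPM in LPS replicate 3, against 102 to 103 CPM in the other LPS libraries. Acly was at 311 CPM in IL-1β replicate 1, against 293 to 294 CPM in the other IL-1β libraries, and at 249 CPM in control replicate 3, against about 259 CPM in the other control libraries. Fads2 was at 67.6 CPM in control replicate 1, against 73.0 to 73.3 CPM in the other control libraries. Without that library the LPS value of Fads2 was -0.10 (adjusted p = 0.0393), against -0.071 ± 0.037 (adjusted p = 0.13) with it. The cause of these gaps was not tested.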

How the results depend on the processing

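Across 22 alternative settings, 2046 values of single members were recomputed. Of these, 1987 kept their side of the threshold, 21 were no longer called and 38 were newly called, and 0 called values changed sign. With each library left out in turn, members higher with IL-1β stayed at 27 and members lower at 0. Members higher with LPS ran from 18 to 19 and lower from 1 to 2 (Sc5d, with Fads2 added without control replicate 1 or LPS replicate 4). Members lower with LPS than with IL-1β ran from 18 to 23. With library size alone, 0 members were lower with LPS against control, and the median of all genes shifted by 0.050 for IL-1β and 0.039 for LPS. At an adjusted p under 0.01, 1137 of all genes were higher and 1065 lower with LPS than with IL-1β, against 1960 and 1831 at 0.05. The cause of these changes was not tested. Over all genes, leaving out each library gave 3935 to 4361 higher and 3686 to 4098 lower with IL-1β, 3466 to 3878 and 3162 to 3535 with LPS, and 1472 to 2115 and 1427 to 1954 between LPS and IL-1β.

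The labels do not say whether replicate numbers pair the libraries. Over all 3 pairs of groups, deviations of same-numbered libraries correlated at -0.033 to 0.117. Each library of 1 group was set against the 4 of the other group, which made 12 comparisons. In 6 of the 12 the best correlation was with the same number, where about 1 in 4 would be so without pairing. These values do not settle whether the numbers pair libraries. With a replicate block, members were 27 higher and 0 lower with IL-1β, 19 and 1 with LPS, and 0 and 23 between LPS and IL-1β. The 4 members added were Idi1 (adjusted p = 0.0308), Stard4 (0.0318), Hsd17b7 (0.0456) and Elovl6 (0.048), all lower with LPS. Depth limits the members with fewest counts, Tm7sf2 and Ebp, most.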
